A study of Homo sapiens with 4 samples.

Results

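Kinesins are motor proteins that use ATP to walk along, or to take apart, microtubules. One set of them builds and operates the mitotic spindle and the midzone between the separating chromosomes, and its genes are mostly switched on shortly before cell division. Another set carries vesicles, mitochondria, protein complexes and ciliary material through cells that need not divide. The kinesin superfamily was taken as every gene whose symbol is KIF with a number and an optional letter, or KIFC with a number, and that had a probe set annotated to it alone. This gave 41 of the 18132 genes measured. They were divided by textbook role into 14 mitotic kinesins, 17 transport kinesins and 10 other kinesins with roles in cilia, centrioles or signalling, or with a role that is poorly known.

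The cells were UM1, an established line derived from squamous cell carcinoma of the human tongue, kept for 7 days in 5.6 mM glucose (normal glucose, which the labels call low) or in 16.7 mM glucose (high glucose). Total RNA of each condition was hybridised to 2 Affymetrix arrays, which the labels call biological replicates. The levels below are log2 values per probe set after RMA, in which an increase of 1 is a doubling, and each gene was read by its brightest probe set. Both conditions are labelled as UM1, and the question was which genes changed their mRNA level in high glucose. All differences are high glucose minus normal glucose on the log2 scale with the standard error (SE) of limma, and a gene was called higher or lower at a Benjamini-Hochberg adjusted p under 0.05 over all 18132 genes.

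The 4 arrays had medians between 5.01 and 5.07. The arrays correlated across probe sets at r = 0.997 within normal glucose, at 0.996 within high glucose and at 0.946 to 0.947 between the groups. The signal of the actin control was 0.71 and 0.74 higher at its 3′ end than at its 5′ end in normal glucose and 0.35 and 0.42 higher in high glucose, so this measure of RNA quality differed with the group, and its part in the results below was not tested. Squamous markers were measured at high levels: KRT5, a basal keratin, read 9.98 and 9.89 in normal glucose and 13.89 and 13.92 in high glucose. Of the 9 squamous markers measured, 6 were higher in high glucose, KRT14 (+4.09) among them, and 2 were lower, KRT18 (−2.21) and the epithelial adhesion molecule EPCAM (−3.17). KRT17, KRT6A and TP63 had no probe set of their own. Beside these and the next marker counts, 15.5% of all genes were called higher and 22.2% lower. Of 9 fibroblast markers, 4 were higher, led by COL3A1 (+7.03) and FAP (+5.97), and the other 5 did not pass. The summed linear signal of the list went from 189 to 208 in normal glucose to 12356 to 12431 in high glucose. Most of the high glucose sum came from COL3A1 alone, which read 13.46 and 13.45 there. On all arrays LUM, PDGFRA and THY1 of that list were under the 25th percentile. None of 7 leukocyte markers was called (summed signal 180 to 199 and 200 to 208). Whether the RNA of both groups came from the same cell population was not tested, and every difference below compares the RNA as labelled.

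Of the 41 kinesins, 16 had a higher and 8 a lower level in high glucose, and the remaining 17 did not pass the test. Over all genes, 15.5% were called higher and 22.2% lower. The mitotic class held rises and no falls, while the transport and the other class held both. Of the 14 mitotic kinesins, 11 were higher and none was lower, with a median difference of +2.92 over the 14 (the same with dim values set to the 25th percentile of their array), against a median of −0.03 over all genes. Of the 17 transport kinesins, 3 were higher and 6 were lower (median −0.11), and of the 10 other kinesins 2 were higher and 2 lower (median +0.05). A rise of more than 4-fold was called for 12 kinesins, the 11 mitotic ones and KIF3C, while 2.43% of all genes were called at that size. With the thresholds of the methods applied to the limma fit (unadjusted p under 0.05 and a fold of more than 1.5 or less than 0.67), 14 kinesins were higher and 4 lower, against 10.6% and 13.4% of all genes, and the mitotic count stayed at 11. With the arrays centred on their spike controls, 19 kinesins were higher and 5 lower, while 20.7% of all genes were higher and 15.8% lower. The transport median was then +0.02 in place of −0.11, and the higher share of all calls went from 41.1% to 56.6%, so small differences depend on the scaling.

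**Figure D1:**
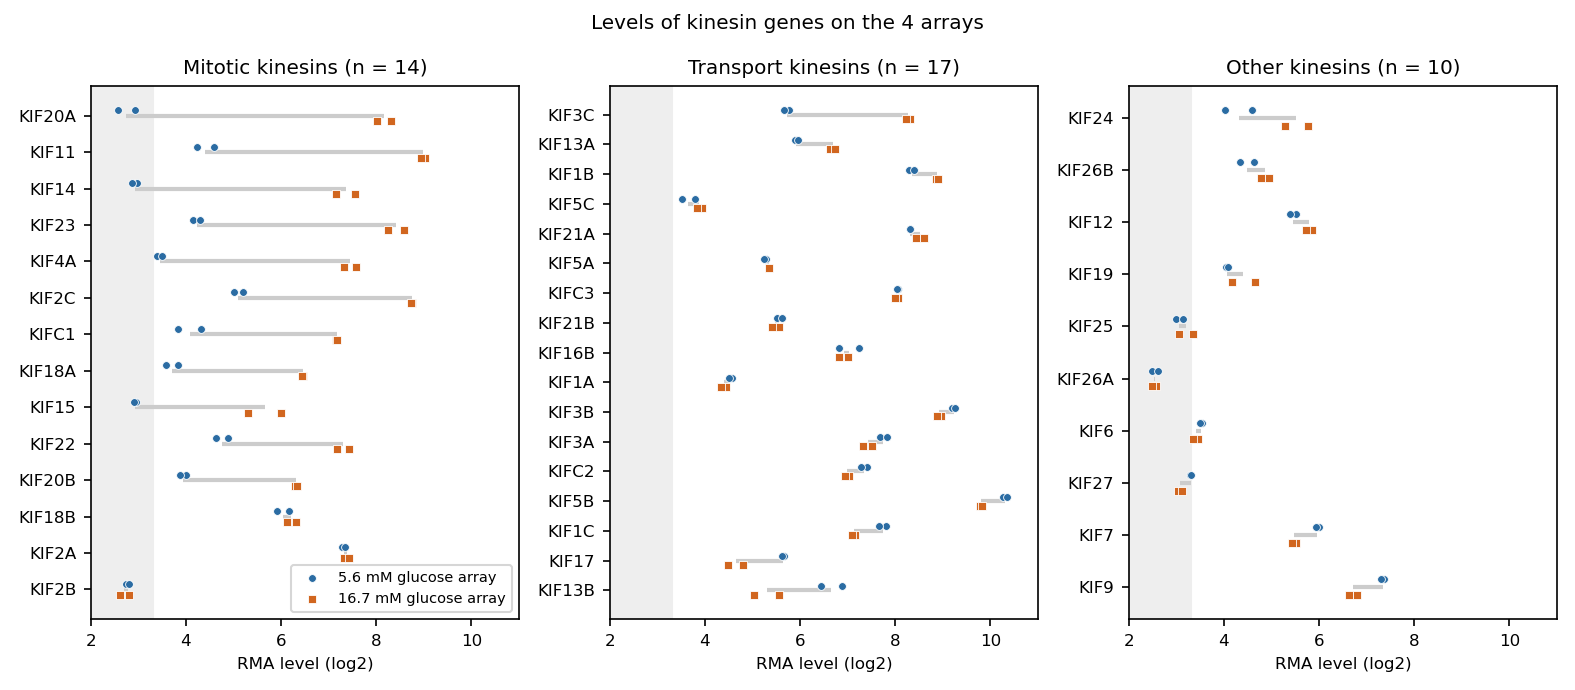
Level of each kinesin gene (RMA, log2, brightest probe set) on the 2 arrays in 5.6 mM glucose (circles) and the 2 arrays in 16.7 mM glucose (squares), by class, with a grey line between the group means and grey shading up to the highest 25th percentile of the 4 arrays. The group means lie more than 2 apart (log2) for 11 mitotic kinesins and, outside that class, for KIF3C alone.

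The upstream sequences of the 6 mitotic kinesins with the largest called rise are shown because many genes expressed late in the cell cycle share short promoter elements, the CCAAT box and the cell cycle genes homology region (CHR). Each is the 100 bases before the RefSeq start in GRCh38.p14, read 5′ to 3′ on the strand of the gene. Capitals mark the CCAAT box, the CHR in its usual form TTTGAA or in its variant TTCGAA, and a pair of binding forms of the E2F factors, of which the first reads TTTCCCGC and the second TTTGGCGC, wherever they occur on either strand. On the opposite strand the CCAAT box reads ATTGG, the usual form of the CHR reads TTCAAA, and the variant is its own reverse complement. The windows lie at chr5:138179012-138179111 (plus strand) for KIF20A, chr10:92593030-92593129 (plus) for KIF11, chr1:200620752-200620851 (minus) for KIF14, chr15:69414249-69414348 (plus) for KIF23, chrX:70290004-70290103 (plus) for KIF4A and chr1:44739737-44739836 (plus) for KIF2C.
KIF20A: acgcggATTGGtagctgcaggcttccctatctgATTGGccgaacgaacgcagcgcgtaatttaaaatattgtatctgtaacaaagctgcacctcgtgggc
KIF11: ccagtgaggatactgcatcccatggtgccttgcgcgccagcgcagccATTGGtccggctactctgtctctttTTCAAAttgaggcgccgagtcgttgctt
KIF14: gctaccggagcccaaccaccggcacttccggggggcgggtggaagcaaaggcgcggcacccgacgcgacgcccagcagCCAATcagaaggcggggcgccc
KIF23: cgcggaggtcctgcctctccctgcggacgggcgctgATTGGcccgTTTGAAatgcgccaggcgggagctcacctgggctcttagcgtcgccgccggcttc
KIF4A: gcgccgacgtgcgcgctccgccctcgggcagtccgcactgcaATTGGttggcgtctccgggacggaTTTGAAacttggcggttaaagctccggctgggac
KIF2C: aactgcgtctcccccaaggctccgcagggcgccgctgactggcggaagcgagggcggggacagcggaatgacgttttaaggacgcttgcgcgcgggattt
KIF11, KIF23 and KIF4A held both elements in these stretches, KIF20A held CCAAT at 2 places, KIF14 held CCAAT, and KIF2C held none of the forms searched.

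Over the full 300-base windows (250 bases before to 50 after the start), 33 of the 41 members had a promoter in the table, some with several starts. TTTGAA was found in 12.4% and CCAAT in 34.7% of the 20403 windows of measured genes. Of the 11 mitotic kinesins that rose, 8 held TTTGAA (KIF11, KIF14, KIF15, KIF18A, KIF20B, KIF23, KIF4A and KIFC1), KIF22 held TTCGAA, which 1.59% of all windows held, and 9 held CCAAT, the exceptions being KIF15 and KIF2C. An E2F form was found in KIF15 alone among these 11, and in 2.83% of all windows. Of the 12 transport kinesins with a window, only KIF5B held TTTGAA, and 4 held CCAAT (KIF1B, KIF3B, KIF5B and KIF5C). Of the 7 other kinesins with a window, KIF24 held TTCGAA, none held TTTGAA, 3 held CCAAT (KIF12, KIF24 and KIF6) and KIF25 held an E2F form. Members are counted here as genes with a match in any of their windows (42 windows for 33 members), whereas the percentages are of windows, so the 2 are not alike. KIF18B, a mitotic kinesin not called from its brightest probe set (1 of its 4 probe sets was called higher, by 0.34), also held TTTGAA and CCAAT. These matches describe the sequences and were not tested as sites.

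The kinesins of the spindle midzone and of cytokinesis had large rises. KIF20A, which brings the chromosomal passenger complex to the midzone, read 2.56 and 2.93 in normal glucose and 8.02 and 8.31 in high glucose. Its fitted difference was +5.42 (SE 0.160, adjusted p = 1.06e-05 from limma, n = 2 arrays per group). Both normal glucose values lay under the 25th percentile of their arrays (3.26 and 3.31), a level taken as the floor here, so the rise is given as at least 29.4-fold. KIF23, the motor of the centralspindlin complex that marks the site of division, read 4.15 and 4.29, then 8.25 and 8.59, a rise of 4.20 (SE 0.137, adjusted p = 1.40e-05 from limma) or 18.4-fold. KIF14, which works with citron kinase in cytokinesis, was near the floor in normal glucose (2.98 and 2.87) and read 7.16 and 7.56 in high glucose, at least 16.8-fold higher (adjusted p = 1.44e-05 from limma). KIF4A, a chromosome-bound motor that sets the length of midzone microtubules together with PRC1, read 3.39 and 3.50 against 7.58 and 7.32, a rise of 4.01 or 16.1-fold (adjusted p = 1.02e-05 from limma). KIF20B, a relative of KIF20A that also serves cytokinesis, rose less, from 4.01 and 3.89 to 6.29 and 6.34 (+2.37, SE 0.091, 5.16-fold). For each of these 5 genes, both high glucose arrays lay above both normal glucose arrays by more than the gap between replicates. This restates the values that gave the calls, and the share of all genes with such a separation was not counted.

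The kinesins that separate the spindle poles and align chromosomes also rose. KIF11 (Eg5), which pushes the poles apart and is the target of several antimitotic drugs, read 4.23 and 4.58 in normal glucose and 9.03 and 8.94 in high glucose. This is a difference of +4.58 (SE 0.134, adjusted p = 1.03e-05 from limma), or 23.9-fold. KIF15, a motor that can take over part of the work of KIF11, was under the floor in normal glucose (2.96 and 2.91) and read 5.31 and 6.0 in high glucose, at least 5.16-fold higher (adjusted p = 3.05e-04 from limma). Its high glucose arrays differed by 0.68, the widest gap between replicates among the mitotic kinesins. KIFC1, a minus-end-directed motor that draws spindle poles together, rose from 3.83 and 4.32 to 7.15 and 7.18 (+3.09, SE 0.166, 8.52-fold). KIF18A, which damps the oscillation of aligned chromosomes, rose from 3.58 and 3.83 to 6.46 and 6.44 (+2.75, SE 0.111, 6.71-fold). KIF22 (Kid), a chromosome-bound motor that pushes chromosome arms away from the poles, rose from 4.63 and 4.88 to 7.43 and 7.18 (+2.55, SE 0.134, 5.86-fold). KIF2C (MCAK), which takes microtubules apart at kinetochores and corrects faulty attachments, read 5.19 and 5.01 against 8.75 and 8.73, a rise of 3.64 (SE 0.098) or 12.4-fold. It had the smallest adjusted p of the family (8.13e-06 from limma).

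The 3 mitotic kinesins that did not pass were all relatives of genes that rose. KIF18B, which limits the length of astral microtubules and belongs to the kinesin-8 subfamily like KIF18A, read 5.92 and 6.16 in normal glucose and 6.31 and 6.12 in high glucose (+0.18, SE 0.122, adjusted p = 0.322 from limma), so its groups overlapped. KIF2A, a kinesin-13 like KIF2C that acts at spindle poles and also in neurons, read 7.28 and 7.35 against 7.32 and 7.43 (+0.06, SE 0.091, adjusted p = 0.662 from limma). KIF2B, the third of these microtubule-depolymerising kinesins, read between 2.61 and 2.80 on the 4 arrays, under the 25th percentile of each, so no direction can be read for it. Beside it, KIF24 of the same subfamily, which acts at centrioles and restrains cilium formation, rose from 4.02 and 4.59 to 5.28 and 5.76 (+1.21, SE 0.235, adjusted p = 0.00918 from limma). That call was lost without normal glucose replicate 1 or without high glucose replicate 2, and the other probe set of KIF24 differed by +0.22 and did not pass.

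**Figure D2:**
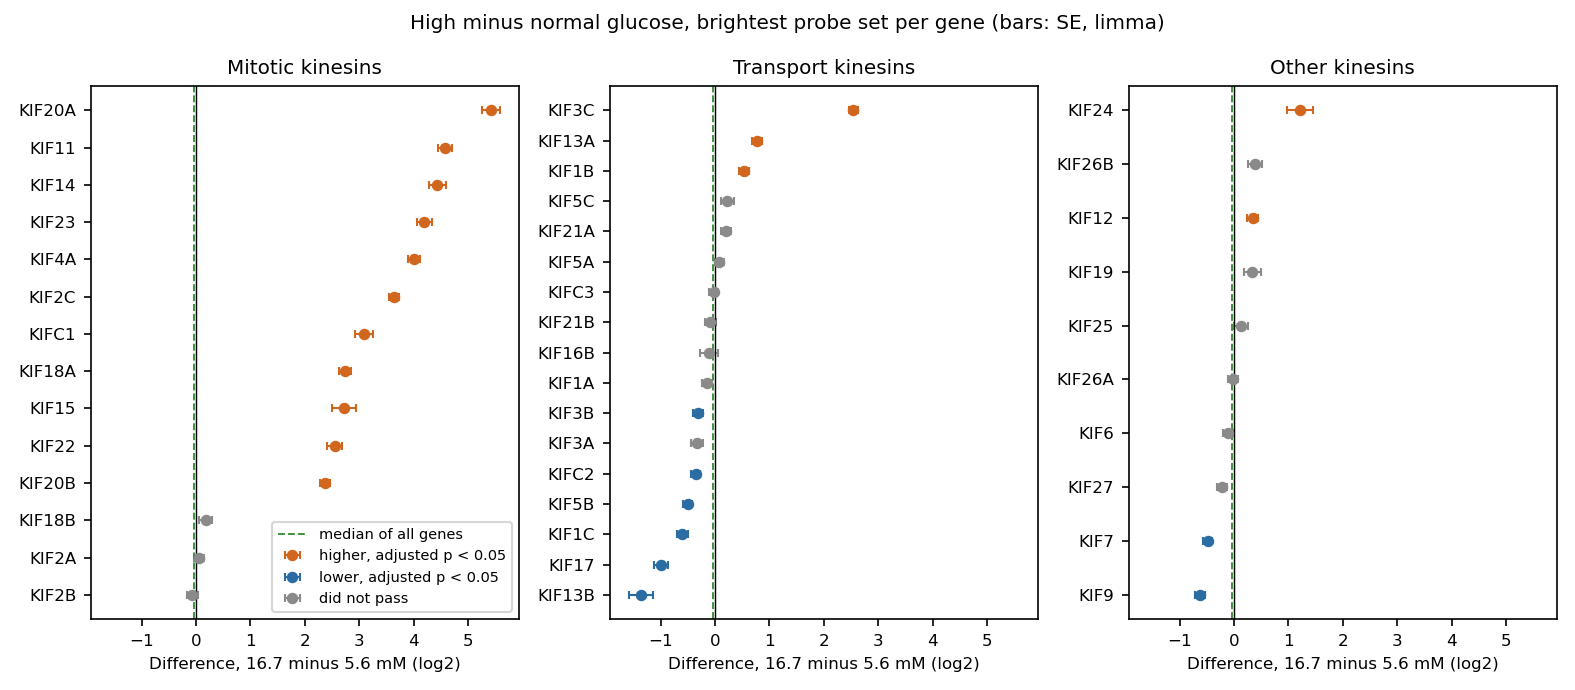
Difference in level between high and normal glucose (log2, x axis) of each kinesin gene with its SE from limma, by class, with calls in colour and the median of all genes as a dashed line. The fitted differences of the 11 mitotic kinesins that rose start at +2.37, those of KIF20A, KIF14 and KIF15 being measured from normal glucose values under the 25th percentile, and the transport kinesins lie between −1.36 and +2.55.

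Genes that work with the mitotic kinesins were mostly higher too. Of a list of 22 partners and regulators, 21 were higher, none was lower and INCENP did not pass. Over all genes, 15.5% were called higher and 22.2% lower. The list had a median of +3.05 (+2.83 with dim values set to the 25th percentile). This list and the proliferation markers below were chosen with earlier results of these data known, so their counts are descriptions and no separate support. DLGAP5, which binds spindle microtubules, read 2.32 and 2.80 in normal glucose and 8.42 and 8.51 in high glucose, at least 36.2-fold higher. TPX2, which activates Aurora A on the spindle, rose from 4.06 and 3.95 to 9.23 and 9.19 (+5.21), and PRC1, which bundles midzone microtubules and recruits KIF4A, from 5.17 and 5.15 to 10.14 and 10.13 (+4.97). CENPE, a kinetochore kinesin whose symbol falls outside the naming rule of the family, rose by 2.81, and RACGAP1, the centralspindlin partner of KIF23, by 2.54. All 10 proliferation markers were higher as well, with a median of +3.98 (+3.90 with dim values at the 25th percentile), among them TOP2A (+5.35), RRM2 (+5.12), MKI67 (+4.05) and PCNA (+1.64), and their summed linear signal went from 709 and 726 to 5520 and 5535. In RNA from whole cultures, more dividing cells and more mRNA per dividing cell cannot be told apart.

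Among the transport kinesins, KIF3C stood out. KIF3C is a kinesin-2 motor that pairs with KIF3A and is best known from neurons. It read 5.77 and 5.67 in normal glucose and 8.30 and 8.23 in high glucose, a rise of 2.55 (SE 0.090, adjusted p = 1.69e-05 from limma) or 5.84-fold. Its 3 probe sets rose by 1.75 to 2.55 and each was called. The rest of the kinesin-2 subfamily did not rise with it. KIF3A, the shared subunit, read 7.68 and 7.82 against 7.33 and 7.52 (−0.33, SE 0.108), which did not pass (adjusted p = 0.0613 from limma) but was called lower under 4 of the alternatives, with adjusted p between 0.0157 and 0.0437. KIF3B, the other partner of KIF3A and a motor of ciliary transport, read 9.19 and 9.26 against 8.95 and 8.88 (−0.31, SE 0.087, adjusted p = 0.0363 from limma), and its call was lost when any 1 array was left out. The call of KIF3B was also lost with the mean or the median of its probe sets. Its dimmer probe sets, at −0.19, −0.14 and +0.15, did not pass. KIF17, a kinesin-2 that carries cargo in dendrites and cilia, fell from 5.67 and 5.62 to 4.81 and 4.49 (−0.995, SE 0.126, adjusted p = 0.00174 from limma). KIFAP3, the adaptor of the KIF3 motors, rose from 8.45 and 8.32 to 9.16 and 9.16 (+0.78).

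The kinesin-3 subfamily, long-range motors of vesicles and endosomes, held members of both directions. KIF13A, which moves recycling endosomes, rose from 5.88 and 5.96 to 6.63 and 6.74 (+0.77, SE 0.092, adjusted p = 0.00140 from limma), while its dimmer probe set differed by +0.19 and did not pass. KIF13B, its close relative, had the largest fall of the family, from 6.88 and 6.44 to 5.04 and 5.56 (−1.36, SE 0.218, adjusted p = 0.00438 from limma), or 2.57-fold. The replicates of KIF13B differed by 0.44 and 0.52, its call was lost without normal glucose replicate 1, and its dimmer probe set differed by −0.16 and did not pass. KIF1B, a motor of mitochondria and synaptic vesicle precursors, rose from 8.29 and 8.39 to 8.85 and 8.90 (+0.53, adjusted p = 0.00521 from limma), with 5 of its 6 probe sets called higher. KIF1C, which carries Golgi and adhesion cargo, fell from 7.81 and 7.65 to 7.16 and 7.10 (−0.60, adjusted p = 0.00451 from limma). KIF16B, an early endosome motor, and KIF1A, the neuronal relative of KIF1B, differed by −0.11 and −0.15 and did not pass.

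The kinesin-1 motor that most cells use fell a little. KIF5B, the widely expressed heavy chain of conventional kinesin, read 10.25 and 10.36 in normal glucose and 9.78 and 9.82 in high glucose (−0.51, SE 0.088, adjusted p = 0.00620 from limma), a fall of 1.42-fold. All 4 of its probe sets were called lower, by 0.51 to 0.70. Without high glucose replicate 1 the call from the brightest probe set was lost. The neuronal heavy chains KIF5A (+0.08) and KIF5C (+0.23) did not pass. Of 10 neuronal markers, none was higher and 2 were lower, SYT1 (at least 5.68-fold) and MAP2 (−1.93), against 15.5% higher and 22.2% lower over all genes. The other 8 did not pass, with ELAVL4 and NEFL under the 25th percentile on every array. The summed linear signal of the list was 480 to 504 in normal glucose and 246 to 264 in high glucose. MAP2, the brightest of the list in normal glucose, read 8.14 and 7.98 there and 6.21 and 6.06 in high glucose. Whether these markers bear on the neuronal kinesins was not tested. The cargo-binding light chain KLC2 fell from 8.28 and 8.31 to 7.28 and 7.32 (−0.99). KIFC2, a minus-end-directed transport kinesin, read 7.40 and 7.29 against 7.02 and 6.95 (−0.36, adjusted p = 0.0255 from limma), and that call was lost when any 1 array was left out. KIFC3, KIF21A and KIF21B did not pass, at −0.03, +0.20 and −0.08, but KIF21B was called lower with the mean or the median of its probe sets (−0.52, adjusted p = 0.00578 and 0.00732 from limma).

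Lists of genes that work beside the transport kinesins held calls in both directions, as did all genes (15.5% higher and 22.2% lower). Of 18 cargo adaptors and light chains, 4 were higher and 5 lower (median −0.09), with FEZ1, an adaptor of neuronal transport, at +1.06 and SPAG9, a scaffold that binds kinesin-1, at −0.78. Of 23 genes of cytoplasmic dynein and dynactin, the opposing motor, 8 were higher and 4 lower (median +0.02). NDE1, a dynein regulator that also acts in mitosis, was higher by 1.17 and DYNC1I2, an intermediate chain, by 0.86, while the light chains DYNLL2 and DYNLRB1 differed by −0.79 and −0.62. Of 24 genes of ciliary transport, 4 were higher and 8 lower (median −0.09). WDR19, a subunit of the retrograde ciliary particle, fell from 7.60 and 7.65 to 5.75 and 5.65 (−1.93), and DYNC2H1, the heavy chain of the ciliary dynein, from 7.32 and 7.17 to 5.42 and 5.87 (−1.60), whereas IFT122 (+1.26) and IFT81 (+0.90) were higher.

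**Figure D3:**
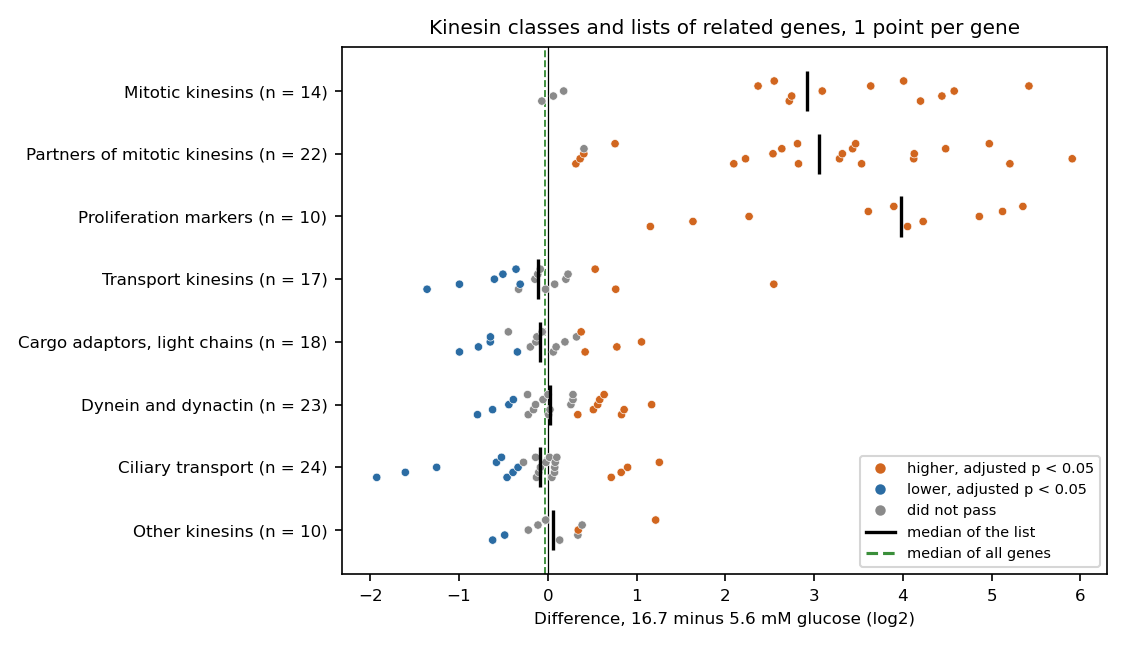
Difference in level between high and normal glucose (log2, x axis) of each gene in the 3 kinesin classes and in 5 lists of related genes, 1 point per gene in colour of its call, with the median of each list as a black bar and the median of all genes as a dashed line. The medians of the mitotic kinesins, their partners and the proliferation markers are +2.92, +3.05 and +3.98, and those of the other lists lie between −0.11 and +0.05, near enough to 0 for the transport median to turn with spike control centring.

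Of the 10 other kinesins, 2 were called higher and 2 lower, where 15.5% and 22.2% of all genes were. Beside KIF24, KIF12, a kinesin of kidney and liver epithelia, was higher, at 5.51 and 5.38 against 5.86 and 5.72 (+0.34, adjusted p = 0.0407 from limma), a call that was lost when any 1 array was left out. KIF7, which acts at the tip of the cilium in Hedgehog signalling, fell from 6.0 and 5.93 to 5.52 and 5.44 (−0.49, adjusted p = 0.00722 from limma), a call lost without normal glucose replicate 1 or high glucose replicate 2. KIF9, a kinesin of motile cilia, fell from 7.36 and 7.31 to 6.64 and 6.79 (−0.62, adjusted p = 0.00362 from limma), while its other 2 probe sets did not pass. Of 9 markers of multiciliated cells, 2 were higher, DNAH5 (+1.29) and TEKT1 (+0.34), and none was lower, beside the same shares of all genes. FOXJ1 was at −0.07. The summed signal of these markers was 154 to 163 in normal glucose and 182 in both high glucose arrays. KIF26B (+0.39), KIF19 (+0.34), KIF25 (+0.13), KIF26A (−0.02), KIF6 (−0.11) and KIF27 (−0.22) did not pass, and KIF26A lay under the 25th percentile on all arrays.

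The subfamily follows the sequence of the motor domain. Kinesin-2, kinesin-3, kinesin-4 and kinesin-14 held called genes of both directions, and the other subfamilies with a call held a single direction. The 3 members of kinesin-6 were all higher (median +4.20), as were the 2 of kinesin-12, KIF15 and KIF12. In kinesin-3, KIF14 rose at least 16.8-fold while KIF13B fell. In kinesin-4, KIF4A rose by 4.01 and KIF7 fell. In kinesin-14, KIFC1 rose by 3.09 and KIFC2 fell. In kinesin-8, KIF18A was called and KIF18B was not, and in kinesin-13 KIF2C and KIF24 were called and KIF2A and KIF2B were not.

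Probe sets other than the brightest mostly repeated the mitotic pattern. The 41 genes had 101 probe sets of their own, of which 30 were called higher and 14 lower when each was tested alone over all probe sets, against 15.3% higher and 20.7% lower of all 44988 probe sets with 1 gene. Of the 26 mitotic probe sets, 19 were higher and none lower, a count that includes the brightest probe set of each of the 14 genes. The second probe sets of KIF23 and KIF14 lay under the 25th percentile in normal glucose and read 8.27 and 8.22 and 6.74 and 6.81 in high glucose. KIF11 rose by 4.58 and 3.36, KIF2C by 3.64 and 3.75, and KIF22 by 2.55, 2.29 and 1.91. The probe sets of KIF4A gave a wider range, +4.01 and +1.26. A probe set that KIF4A shares with its near-identical copy KIF4B read 3.14 and 3.16 against 7.47 and 7.62, and KIF4B had no probe set of its own. KIF18B had 4 probe sets, a pair of them with the same values on all arrays, at +0.18, +0.18, +0.22 and +0.34, of which the last was called (adjusted p = 0.0316 from limma over all probe sets) at levels of 3.28 and 3.21 against 3.61 and 3.56. Of the 54 transport probe sets, 9 were higher and 11 lower, shares close to those of all probe sets. KIF21B, not called from its brightest probe set, read 4.93 and 5.27 against 4.14 and 4.16 on its other one (−0.95), and KIF26B gave +0.39 on the brightest and −0.40 on another that was called. KIF5C gave +0.23 on the brightest and −0.64 on another that was called but lay under the 25th percentile on all arrays.

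**Figure D4:**
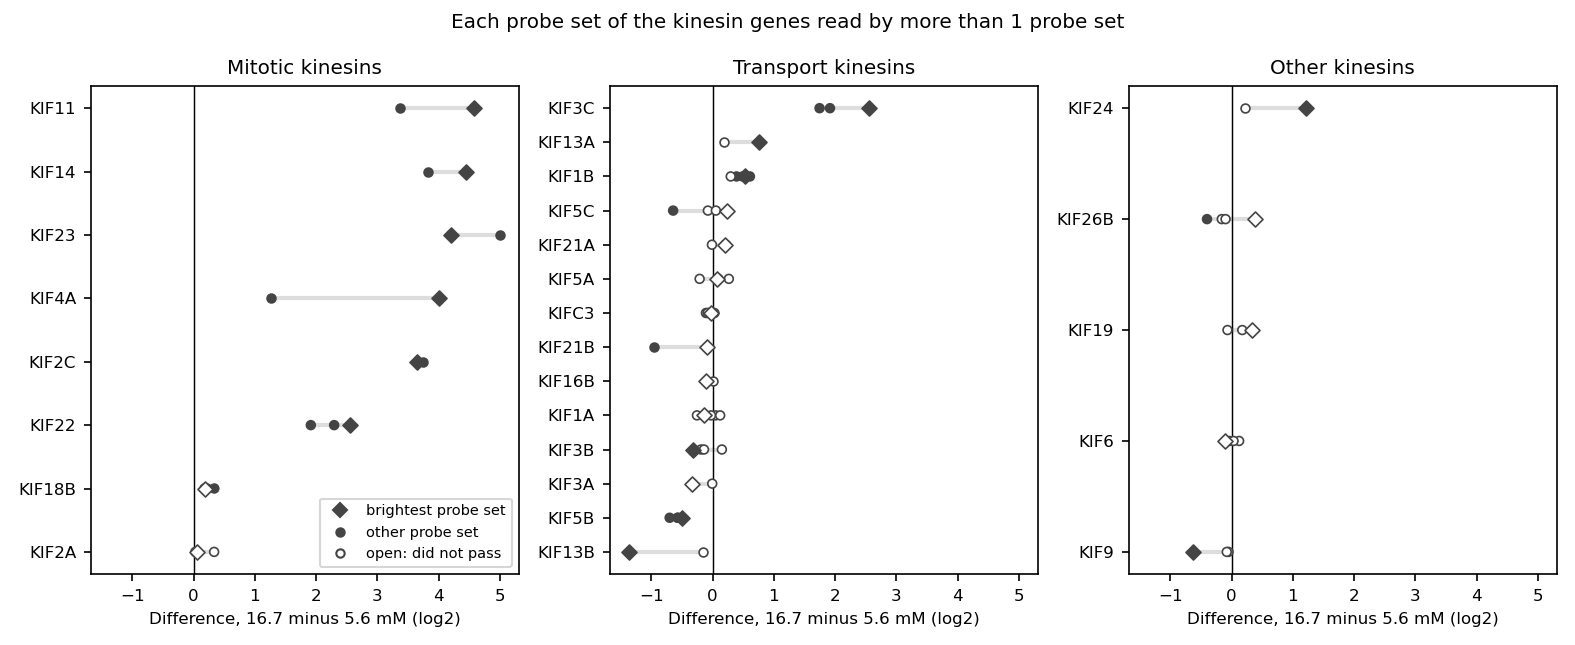
Difference in level between high and normal glucose (log2, x axis) of every probe set of the 27 kinesin genes with more than 1, diamonds for the brightest and circles for the others, filled where the probe set was called. All probe sets of KIF11, KIF14, KIF23, KIF2C and KIF22 lie at +1.91 or above, while those of KIF4A, KIF13B and KIF21B are spread. Differences from values under the 25th percentile, as for KIF14 and the second probe set of KIF23, are fitted values only.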

How the data were processed

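RNA of UM1 cells in normal or high glucose was measured on 4 arrays, 2 per group. Scans were processed by the authors with GCOS and RMA (versions not given in the sources used here), and the deposited log2 values per probe set are thus background-corrected and normalised to each other. Although the methods give the array as Human Genome U133 Plus 2.0, the identifiers of all 49395 probe sets belong to PrimeView, so its annotation served here. Of these, 44988 had 1 gene, 1832 several and 2473 were not listed. The 102 controls were left out of the tests, and control probe sets served only for the actin measure and for 1 alternative.

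Each of 18132 genes was read by its brightest probe set, by the mean of all 4 arrays, and tested with limma 3.58.1 in R 4.3.3 (lmFit, eBayes, Benjamini-Hochberg over all genes). Nothing says that the replicates came from separate cultures beyond the label biological replicate, so the p-values measure the spread between these arrays, which may be technical. With 2 arrays per group, an exact permutation test cannot go below p = 0.333 (two-sided) and was not used, and the number of arrays limits the precision. The procedure was also run on simulated data with independent noise and far fewer changed genes than were called here. That run therefore does not show how the p-values behave in these data. Tables were made with Python 3.11.15, pandas 2.3.3 and numpy 2.4.6.

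Each kinesin is named. From each gene list the 2 largest called rises and the 2 largest called falls are named, with MKI67, PCNA and CENPE. PRC1, RACGAP1, INCENP, FOXJ1 and the markers under the 25th percentile were chosen after their values were seen. The members and lists were chosen with earlier results of these data known. Folds are given as at least their value against the 25th percentile where both arrays of the lower group lay at or under it. Promoter windows are from RefSeq (GRCh38.p14), matched by symbol for 33 of 41 members.

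Alternatives tried were the mean or the median of a gene's probe sets, leaving out _x_at probe sets or dim genes, a floor on dim values, quantile normalization, median or spike control centring, limma-trend with robust eBayes, the t-test of the methods, a block for the replicate number, other thresholds, and leaving out each array.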

Additional observations from a re-analysis of the deposited data

How the results depend on the processing

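The 11 rises of mitotic kinesins held under every alternative except the methods' t-test with adjustment, which left 10 (KIF15 was lost). Of the 16 kinesins called higher, 12 kept the call under every alternative run, KIF3C and KIF13A among them. Of the 8 called lower none did, since the adjusted t-test called no kinesin lower, neither in the family (0) nor among transport kinesins (0). The smallest adjusted p of a fall was 0.0594 from that t-test. The adjusted t-test called 9.19% of all genes lower and 7.43% higher, against 22.2% and 15.5% in the limma fit. At an unadjusted p under 0.05 from the t-test, 8 kinesins and 5 transport kinesins were lower, and the share of all genes at that threshold was not counted. Kinesins called lower numbered 5 with spike control centring and 4 at the methods' thresholds, and 4 to 6 when 1 array was left out (fewest without normal glucose replicate 1), where 15.8%, 13.4% and at most 15.7% of all genes were lower. Transport kinesins called lower numbered 3 at the methods' thresholds and 3 to 4 when 1 array was left out (3 without normal glucose replicate 1 or high glucose replicate 1). The median of the mitotic kinesins was 2.73 with the mean and with the median of all probe sets, 3.09 with dim genes left out, 3.05 with spike control centring and 2.80 to 3.10 when 1 array was left out.

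Spike control centring moved the median of all genes from −0.03 to 0.10 and the share of calls that were higher from 41.1% to 56.6%, and turned the transport median to 0.0224. KIF3B, KIF7 and KIFC2 lost their calls under it. Calls were gained by KIF3A under 4 alternatives, by KIF26B under 3, by KIF19 and KIF21B under 2 each and by KIF5C under 1. The signs of 10 kinesins that were not called turned under some alternatives. With spike control centring KIF16B was at 0.0224, KIF21B at 0.0503, KIF26A at 0.11, KIF2B at 0.0682, KIF6 at 0.0246 and KIFC3 at 0.11. With the mean of all probe sets KIF26B was at −0.0677, KIF5C at −0.11 and KIF6 at 0.0020, and with their median KIF26B was at −0.27, KIF5C at −0.29 and KIF1A at 0.12. With the floor KIF26A and KIF2B were at 0.0024, and with quantile normalization KIFC3 was at 0.0286. With 1 array left out the range was −0.33 to 0.104 for KIF16B, −0.0158 to 0.284 for KIF25, −0.0871 to 0.0389 for KIF26A, −0.163 to 0.029 for KIF2B and −0.0602 to 0.00907 for KIFC3.

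The replicate numbers did not pair the arrays (correlation of deviations −0.0046). With a replicate block 17 kinesins were higher and 7 lower, with 11 mitotic kinesins higher, KIF3B lost its call and KIF26B gained one (adjusted p = 0.0396 from limma), while 13.9% of all genes were higher and 19.8% lower. The smallest difference called among the kinesins was −0.31 (KIF3B), and levels at or under the 25th percentile carry no order. The causes of these changes were not tested.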
